A study of Saccharomyces cerevisiae with 54 samples.

Results

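The MMTT strain of Saccharomyces cerevisiae was followed over a single interval of a sporulation time course, from 1 h 40 min to 3 h 50 min in sporulation medium. The libraries were chosen by their labels alone and number 6 of the 54 in the series, with 3 replicates at each time. The series follows 2 diploid strains in the S288c background at 9 time points and asks how a pair of natural alleles acts together on sporulation. MMTT is the allele replacement strain with the genotype MKT1(89G)/TAO3(4477C), and SS is the wildtype with MKT1(89A)/TAO3(4477G). Cultures of both strains were grown in YPD and then in YPA, an acetate medium, before transfer at 0 h to 1% potassium acetate with amino acid supplements, so every library of the interval shares this history. MMTT is a single diploid, made by mating haploids that carry both alleles, so the interval shows that strain and not independent transformants. The 6 SS libraries of the same times serve as the comparison.

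Diploid yeast that lacks nitrogen and lives on acetate leaves the growth cycle and enters meiosis. The regulator Ime1 acts with the DNA-binding protein Ume6 at a promoter element called URS1 and switches on the early genes, whose products replicate the DNA, break it, and pair and recombine the homologous chromosomes. The transcription factor Ndt80 then acts at the middle sporulation element, or MSE, where Sum1 acts as a repressor, and switches on the genes for the meiotic divisions, the prospore membrane and the spore wall.

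Total counts in the 6 libraries lay between 4121628 and 4885774. Replicates differed by more than counting error, with a chi-square per degree of freedom of 9.86 to 37.1 at 1 h 40 min and 5.90 to 11.9 at 3 h 50 min, and no files were identical. The labels do not say whether replicates are separate cultures, so the p-values measure the spread between replicate libraries, which may be technical. That spread was estimated over all 24 MMTT libraries of the fit and not over the 6 alone. At the time between, the MMTT 2 h 30 min replicate 2 stood apart. Its spore wall genes had a mean log2 CPM (read counts scaled to a common library total) of 7.39, against 5.37 in replicate 1 and 5.29 to 6.37 at 3 h 50 min, and it entered the test only through the shared estimate of the spread. In SS, the 3 h 50 min replicate 1 stood apart from the other two, at a chi-square per degree of freedom of 62.2 and 63.8, against 6.99 between those. The 5 libraries that the study left out of its own analysis are from other times.

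Neither of the replaced genes was called over the interval, and since the replacements are base changes, their counts do not check the label of the cultures. MKT1, a regulator of mRNAs bound by Puf3, had 119, 137 and 139 CPM at 1 h 40 min and 130.2, 138 and 140.3 CPM at 3 h 50 min, and TAO3, a scaffold of the RAM signalling network, had 146, 156 and 157 CPM at 1 h 40 min and 143, 143 and 137 CPM at 3 h 50 min. The values of MKT1 overlapped between the times, while those of TAO3 at 3 h 50 min were all slightly lower, with a log2 fold change of -0.11 ± 0.16 (SE) that did not pass the test. All 8 meiotic marker genes (IME1, IME2, SPO11, DMC1, ZIP1, HOP1, REC8 and NDT80) had reads in all 6 libraries. Where 2.23% of all genes tested were called in either direction, 0 of the 23 haploid cell markers tested were, by edgeR's quasi-likelihood test. Their summed level was 343 to 367 CPM at 1 h 40 min and 404 to 451 CPM at 3 h 50 min, and at most 1 of them was at 0 in a library. MFA1, the precursor of the a-factor pheromone, had 4.0 to 7.04 CPM at the earlier time and 8.90 to 10.6 CPM at the later, without overlap. Their part in the results below was not tested. In these bulk samples, fewer cells of a type and less RNA per cell cannot be told apart.

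Over the interval, genes of meiosis and of ribosome assembly were among those that rose, and genes of daughter cell separation and of stored carbohydrate among those that fell. Of 6419 genes tested, 94 were called higher at 3 h 50 min, a share of 1.46%, and 49 lower, a share of 0.763%, so 2.23% changed in either direction. The test was the quasi-likelihood test of edgeR, with p-values adjusted by Benjamini-Hochberg, and a call needed both an adjusted p below 0.05 and a log2 fold change above 1 or below -1. With no fold threshold, 3.43% of genes passed as higher and 3.6% as lower. Of the 94, 33 belong to the lists of meiotic and spore genes, 11 to the ribosome biogenesis list and 45 to no list. All 143 called genes had values that did not overlap between the times, where 17% of all genes tested lay wholly above and 17.4% wholly below. The median log2 fold change of all genes tested was 0.01. The counts depended on single libraries. Higher and lower calls were 22 and 24 without the 1 h 40 min replicate 2, 35 and 19 without the 3 h 50 min replicate 2, 56 and 32 without the 3 h 50 min replicate 1, 62 and 51 without the 1 h 40 min replicate 3, and 71 and 32 without the 1 h 40 min replicate 1, and with all 27 MMTT libraries in the fit they were 28 and 28.

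**Figure D1:**
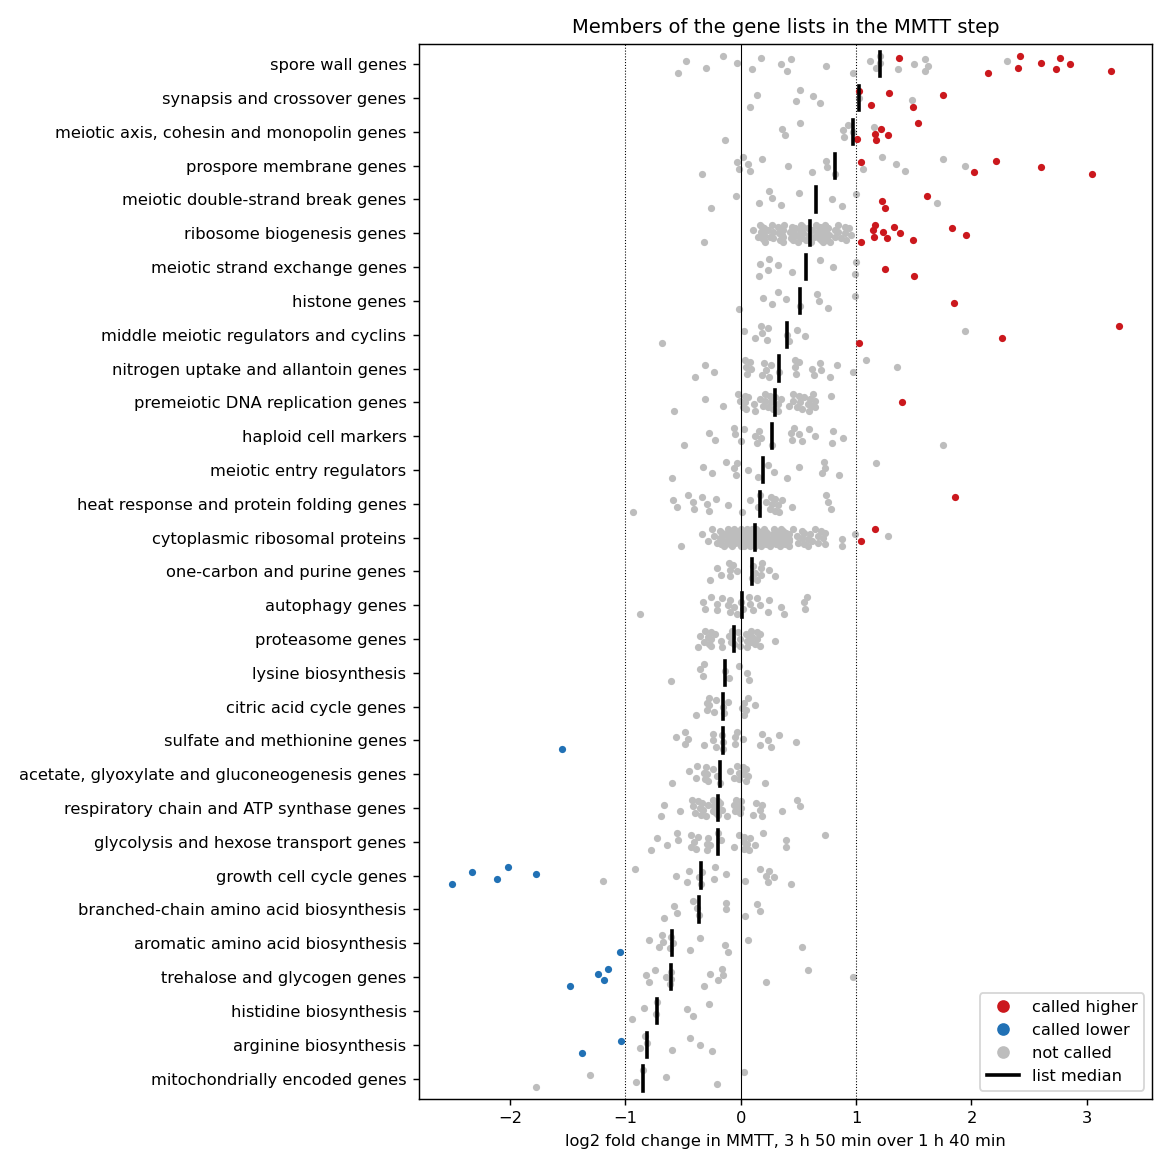
Log2 fold change in MMTT from 1 h 40 min to 3 h 50 min (horizontal axis) for the members of 31 gene lists (1 line each, ordered by median). Each point is 1 gene, red where called higher, blue where called lower and grey where not called, black bars are list medians and dotted lines mark a log2 fold change of 1 and -1. Spore wall genes had the highest median of these lists, at 1.21.

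Genes of chromosome breakage, pairing and recombination were among the called genes, with rises of similar size. Over the lists for double-strand breaks, strand exchange, synapsis with crossovers, and the chromosome axis with cohesin and monopolin, 16 of 54 tested genes were called higher and 0 lower, where 1.46% of all genes were called higher. Their median log2 fold change was 0.88, and the 16 called genes rose by 2.02-fold to 3.37-fold. Without the 1 h 40 min replicate 2 the number called was 4, without the 3 h 50 min replicate 2 it was 6 and without the 3 h 50 min replicate 1 it was 7, while the median stayed between 0.73 and 0.94 in every leave-out. Without the 2 h 30 min replicate 2 it was 17, an alternative chosen after seeing the data.

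Of the genes that make the breaks, 3 of 14 were called. REC114, a partner of the break-forming enzyme, had 17.5, 17.9 and 16.9 CPM at 1 h 40 min and 60.7, 53.5 and 44.3 CPM at 3 h 50 min. The 3 early values lay close together, all later values were higher, and the 3.06-fold rise (log2 fold change 1.61 ± 0.21, edgeR, adjusted p = 0.000376) was called in every leave-out. SPO11, the enzyme that cuts the DNA, had 27.3, 19.9 and 18.3 CPM at 1 h 40 min and 52.9, 62.2 and 36.8 CPM at 3 h 50 min. All later values were above the earlier ones, with replicate 3 the lowest at 3 h 50 min, and the log2 fold change was 1.22 ± 0.32 (edgeR, adjusted p = 0.028). REC102, another partner of Spo11, had 14.5, 9.20 and 10.7 CPM at 1 h 40 min and 26.7, 32.6 and 22.4 CPM at 3 h 50 min, again without overlap. Its log2 fold change was 1.25 ± 0.26 (edgeR, adjusted p = 0.00961). The call of SPO11 was lost without the 1 h 40 min replicates 2 and 3 and the 3 h 50 min replicates 1 and 2, with adjusted p from 0.079 to 0.126. That of REC102 was lost without replicate 2 of either time, at 0.0672 and 0.0652.

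Of the strand exchange genes, 2 of 12 were called. HOP2, which keeps exchange between homologous chromosomes, had 97.7, 42.6 and 65.9 CPM at 1 h 40 min and 181, 149 and 161 CPM at 3 h 50 min, and MEI5, a loader of the meiotic recombinase Dmc1, had 75.2, 22.0 and 45.3 CPM at 1 h 40 min and 143, 152 and 108 CPM at 3 h 50 min. In both, all later values lay above the earlier, and the 1 h 40 min replicate 2 was the lowest of the 6. The log2 fold changes were 1.25 ± 0.32 for HOP2 and 1.5 ± 0.40 for MEI5 (edgeR, adjusted p = 0.0243 and 0.0304). DMC1, the recombinase, had 512, 265 and 395 CPM at 1 h 40 min and 593, 695 and 597 CPM at 3 h 50 min. Its values did not overlap either, but the change of 0.69 ± 0.26 was not called (edgeR, adjusted p = 0.12). Without the 1 h 40 min replicate 2 the adjusted p of HOP2 and MEI5 was 0.12 and 0.131, and both were also lost without the 1 h 40 min replicate 3 (0.0768 and 0.0893), the 3 h 50 min replicate 1 (0.079 and 0.0873) and the 3 h 50 min replicate 2 (0.0692 and 0.114), and HOP2 also without the 3 h 50 min replicate 3 (0.0553).

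Synapsis and crossover genes had 5 of 13 members called and a median log2 fold change of 1.03. ECM11, a part of the central element of the synaptonemal complex, had 32.5, 20.1 and 30.3 CPM at 1 h 40 min and 88.3, 109 and 80.9 CPM at 3 h 50 min. Every later library was above the highest earlier one, and the gene was called in every leave-out (log2 fold change 1.75 ± 0.33, edgeR, adjusted p = 0.00537). SPO22, a regulator of crossovers and synapsis, had 68.4, 50.8 and 76.9 CPM at 1 h 40 min and 212, 181 and 153 CPM at 3 h 50 min, and its call also held in every leave-out (log2 fold change 1.49 ± 0.28, edgeR, adjusted p = 0.00476). ZIP1, the transverse filament that holds paired chromosomes together, had 73.4, 75.8 and 106 CPM at 1 h 40 min and 222, 217 and 175 CPM at 3 h 50 min. Its 3 later values were all above the earlier, with a log2 fold change of 1.28 ± 0.30 (edgeR, adjusted p = 0.0161). MSH4, which stabilizes crossover intermediates, rose by 1.13 ± 0.27 on the log2 scale, from 35.2, 25.7 and 39.8 CPM to 77.3, 85.7 and 55.9 CPM (edgeR, adjusted p = 0.0171). ZIP1 and MSH4 lost their call without replicate 2 of 1 h 40 min (0.0857 and 0.0945), replicate 1 of 3 h 50 min (0.0546 and 0.0571) and replicate 2 of 3 h 50 min (0.0673 and 0.0889), and ZIP1 also without the 1 h 40 min replicate 1 (0.0576).

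The list of axis, cohesin and monopolin genes had 6 of 15 members called and a median of 0.97. MEK1, the kinase that directs repair to the homologous chromosome, had 49.1, 23.7 and 65.3 CPM at 1 h 40 min and 137, 147 and 115 CPM at 3 h 50 min. Even its lowest later value was well above its highest earlier one, and it was called in every leave-out (log2 fold change 1.54 ± 0.29, edgeR, adjusted p = 0.00455). REC8, the cohesin of meiotic chromosomes, had 172, 133 and 204 CPM at 1 h 40 min and 430.0, 390.0 and 358 CPM at 3 h 50 min, with a log2 fold change of 1.22 ± 0.28 (edgeR, adjusted p = 0.0135). HOP1, an axis protein that recruits Mek1, had 135, 98.1 and 161 CPM at 1 h 40 min and 284, 259.5 and 245 CPM at 3 h 50 min and a log2 fold change of 1.01 ± 0.25 (edgeR, adjusted p = 0.0222). For both, the 2 sets of values were separate and the 1 h 40 min replicate 2 was the lowest. PCH2, an ATPase that remodels Hop1, and SPO13, which keeps sister chromatids facing the same pole, rose by 1.28 ± 0.27 and 1.18 ± 0.26 on the log2 scale (edgeR, adjusted p = 0.0106 and 0.013). Without the 1 h 40 min replicate 2, REC8, HOP1, PCH2 and SPO13 were all lost, with adjusted p between 0.0707 and 0.111, and without the 3 h 50 min replicate 2 REC8, HOP1 and SPO13, with 0.05 to 0.0716. Without the 3 h 50 min replicate 1, REC8, HOP1 and PCH2 were lost, with 0.0509 to 0.0723, and HOP1 also without the 1 h 40 min replicate 1, with 0.052.

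Sequence before 3 of these genes is shown because it carries the core of URS1, the letters GGCGGC, which was searched on both strands between 350 and 101 bases before the start codon (R64 assembly, RefSeq). Of 5875 genes with such a window, 5.04% held it, of the 16 called recombination and chromosome genes 6 held it, or 37.5%, and of all 54 tested genes of these lists 12 did, or 22.2%. A match describes letters in the window and not a bound site. The windows lie at chrXV:996612-996861 on the minus strand for MEK1, chrXVI:571479-571728 on the minus strand for REC8 and chrIX:226252-226501 on the plus strand for HOP1, and are printed 5′ to 3′ in the direction of the gene, with the match in capitals. The match starts 148 and 134 bases before the start codon of MEK1, which has it at 2 places, 184 bases before that of REC8 and 171 bases before that of HOP1.

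MEK1: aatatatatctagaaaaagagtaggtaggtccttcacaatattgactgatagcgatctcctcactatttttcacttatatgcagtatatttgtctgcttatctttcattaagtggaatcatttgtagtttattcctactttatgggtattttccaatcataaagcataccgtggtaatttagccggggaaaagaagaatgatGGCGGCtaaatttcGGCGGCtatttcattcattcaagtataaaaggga
REC8: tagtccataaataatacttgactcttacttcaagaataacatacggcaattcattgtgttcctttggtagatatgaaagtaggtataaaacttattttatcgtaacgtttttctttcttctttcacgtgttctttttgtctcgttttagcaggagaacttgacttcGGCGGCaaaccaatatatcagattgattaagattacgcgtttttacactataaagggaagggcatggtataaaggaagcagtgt
HOP1: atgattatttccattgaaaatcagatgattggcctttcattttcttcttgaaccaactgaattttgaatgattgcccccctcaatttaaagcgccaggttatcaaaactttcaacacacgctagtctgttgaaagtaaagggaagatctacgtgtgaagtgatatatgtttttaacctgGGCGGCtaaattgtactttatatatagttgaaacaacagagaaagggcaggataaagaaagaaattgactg

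The regulators of meiotic entry gave no calls. Of 18 meiotic entry regulators tested, 0 were called in either direction by edgeR's quasi-likelihood test, with a median log2 fold change of 0.19. Of all genes tested 2.23% were called, so a list of this size can hold none at the general share. In this list 6 lay wholly above their earlier values and 2 wholly below, against 17% and 17.4% of all genes tested. IME1, the master regulator of entry, had 227, 408 and 382 CPM at 1 h 40 min and 726, 426 and 516 CPM at 3 h 50 min. The later values were above the earlier ones, but replicate 2 was close to the highest earlier value, and the change of 0.73 ± 0.39 was not called (edgeR, adjusted p = 0.288). IME2, a kinase that acts after Ime1, had 204, 139 and 242 CPM at 1 h 40 min and 500.2, 454 and 359 CPM at 3 h 50 min, without overlap and with a log2 fold change of 1.17 ± 0.41 (edgeR, adjusted p = 0.0885). RIM4, a translational repressor of meiotic cyclins, had 183, 269 and 351 CPM at 1 h 40 min and 559, 451 and 419.9 CPM at 3 h 50 min (log2 fold change 0.85 ± 0.41, edgeR, adjusted p = 0.235). UME6 had 107, 94.4 and 121 CPM at 1 h 40 min and 144, 145 and 134 CPM at 3 h 50 min (log2 fold change 0.40 ± 0.16, edgeR, adjusted p = 0.139). A call of IME2, IME1, RIM4 or UME6 was reached in none of the 6 leave-outs.

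NDT80 had 37.5, 28.8 and 32.7 CPM at 1 h 40 min and 50.1, 65.1 and 29.5 CPM at 3 h 50 min. The values overlapped, since replicate 3 at 3 h 50 min was within the earlier range, and the change of 0.56 ± 0.36 was not called (edgeR, adjusted p = 0.388). At 8 h 30 min NDT80 reached 324 to 568 CPM. SUM1, the repressor at the same element, had 99.5, 108 and 131 CPM at 1 h 40 min and 124, 124 and 144 CPM at 3 h 50 min, which overlapped (log2 fold change 0.22 ± 0.14, edgeR, adjusted p = 0.371).

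The genes of division, prospore membrane and spore wall held the largest fitted rises among the meiotic lists, and their replicates followed a common order. Of 69 tested, 17 were called higher and 0 lower, where 1.46% of all genes tested were called higher. Their median log2 fold change was 0.97, and the called genes rose by 2.04-fold to 9.71-fold. In 16 of the 17 the order at 3 h 50 min was replicate 2 above replicate 1 above replicate 3, an order found in 14.2% of all genes tested, and in all 17 replicate 2 was the lowest at 1 h 40 min, as in 24.2% of all genes. Other called genes shared much of this. The shares were 46.8% and 59.6% in all 94 genes called higher, and 50% and 81.25% in the 16 called recombination and chromosome genes. The count of 17 rested on these libraries. It was 0 without the 1 h 40 min replicate 2, 2 without the 3 h 50 min replicate 2, 4 without the 1 h 40 min replicate 1, 5 without the 3 h 50 min replicate 1 and 9 without the 1 h 40 min replicate 3, while the median stayed between 0.77 and 1.07. Without the 2 h 30 min replicate 2 it was 29.

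Among the regulators of the middle stage, 3 of 15 were called. SMK1, the kinase that coordinates spore wall assembly, had 1.59, 0.484 and 1.05 CPM at 1 h 40 min and 10.8, 16.1 and 4.25 CPM at 3 h 50 min. All later values were above the earlier, a 9.71-fold rise (log2 fold change 3.28 ± 0.65, edgeR, adjusted p = 0.00739), which was lost only without the 1 h 40 min replicate 2, at 0.0503. SPS1, a kinase needed for spore formation, had 16.1, 11.6 and 17.1 CPM at 1 h 40 min and 66.0, 116 and 32.6 CPM at 3 h 50 min, and rose by 2.27 ± 0.56 on the log2 scale (edgeR, adjusted p = 0.022). AMA1, the meiotic activator of the anaphase-promoting complex, had 117, 80.1 and 112 CPM at 1 h 40 min and 232, 245 and 149.5 CPM at 3 h 50 min and a log2 fold change of 1.03 ± 0.29 (edgeR, adjusted p = 0.0399). Replicate 3 was the lowest of the later libraries in all of these. The call of SPS1 was lost without any of the 1 h 40 min libraries (adjusted p 0.0566, 0.0971 and 0.0578) and without the 3 h 50 min replicate 2 (0.122), and AMA1 kept its call only when the 3 h 50 min replicate 3 was left out, with up to 0.163 otherwise.

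Of the prospore membrane genes, 5 of 23 were called, with a median of 0.81. SPO19, a membrane protein of the forming spore, had 15.9, 5.08 and 20.4 CPM at 1 h 40 min and 91.1, 131 and 30.2 CPM at 3 h 50 min, a 6.08-fold rise. SSP2, an activator of Smk1 at the prospore membrane, had 16.6, 7.51 and 15.2 CPM at 1 h 40 min and 60.7, 95.0 and 25.7 CPM at 3 h 50 min, and SPR3, a septin of sporulation, had 34.8, 16.7 and 33.9 CPM at 1 h 40 min and 118, 174 and 52.4 CPM at 3 h 50 min. The later values of all 3 genes lay above the earlier, with replicate 2 the lowest at the first time and the highest at the second. Their log2 fold changes were 2.60 ± 0.63, 2.21 ± 0.52 and 2.02 ± 0.53 in that order (edgeR, adjusted p = 0.0196, 0.0171 and 0.0294). SPO77, which works with Sps1 in closing the membrane, rose from 0.681, 0.242 and 1.26 CPM to 5.62, 9.09 and 4.25 CPM (log2 fold change 3.04 ± 0.79, edgeR, adjusted p = 0.0275). All 4 calls were lost without the 1 h 40 min replicate 2, with adjusted p of 0.0925 to 0.126, and without the 3 h 50 min replicate 2, with 0.105 to 0.144. SPO19, SPR3 and SPO77 were also lost without replicate 1 of 1 h 40 min (0.0518 to 0.0798) or of 3 h 50 min (0.054 to 0.0723), and SPR3 and SPO77 without the 1 h 40 min replicate 3 (0.0693 and 0.0507).

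Of 31 spore wall genes, 9 were called higher, where 1.46% of all genes tested were, and their median log2 fold change was 1.21. A larger share was called in the axis, cohesin and monopolin list, 6 of 15, and in the synapsis and crossover list, 5 of 13. DTR1, a transporter of the dityrosine precursor for the outer wall, had 4.09, 2.18 and 4.21 CPM at 1 h 40 min and 33.3, 50.1 and 14.2 CPM at 3 h 50 min, a 9.25-fold rise. SPS4, a gene of spore development, had 85.9, 18.9 and 88.3 CPM at 1 h 40 min and 507, 722 and 166 CPM at 3 h 50 min, a 7.24-fold rise. Replicate 3 at 3 h 50 min exceeded the earlier libraries by the least in both genes. SPR1, a glucanase of the spore, had 21.4, 9.20 and 20.6 CPM at 1 h 40 min and 114, 156 and 40.1 CPM at 3 h 50 min. SPR2, a protein of the spore wall, had 18.4, 6.29 and 19.4 CPM at 1 h 40 min and 109, 151 and 32.3 CPM at 3 h 50 min. RRT5 had 10.9, 7.02 and 14.7 CPM at 1 h 40 min and 86.2, 109.8 and 26.4 CPM at 3 h 50 min. In each, the later values lay above the earlier, and the 3 h 50 min replicate 3 was closest to them. The log2 fold changes were 3.21 ± 0.69 for DTR1, 2.86 ± 0.75 for SPS4, 2.60 ± 0.52 for SPR1, 2.73 ± 0.70 for SPR2 and 2.77 ± 0.66 for RRT5 (edgeR, adjusted p = 0.0105, 0.0293, 0.00781, 0.0255 and 0.0176). OSW1, for outer wall assembly, and LDS1, a protein of lipid droplets at the wall, rose by 2.42 ± 0.60 and 2.41 ± 0.60 (edgeR, adjusted p = 0.022 and 0.0235).

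The calls of spore wall genes depended on single libraries. Of the 31, 0 were called without the 1 h 40 min replicate 2, 1 without the 3 h 50 min replicate 2, 2 without replicate 1 of either time and 5 without the 1 h 40 min replicate 3, against 10 without the 3 h 50 min replicate 3 and 16 without the 2 h 30 min replicate 2. The median log2 fold change stayed between 0.92 and 1.51. SPR1 kept its call in 5 of the 6 leave-outs and DTR1 in 4, while SPS4 and SPR2 kept it in 1, with adjusted p up to 0.121 and 0.118. RRT5, OSW1 and LDS1 kept it in 2, with adjusted p up to 0.0913, 0.123 and 0.114.

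**Figure D2:**
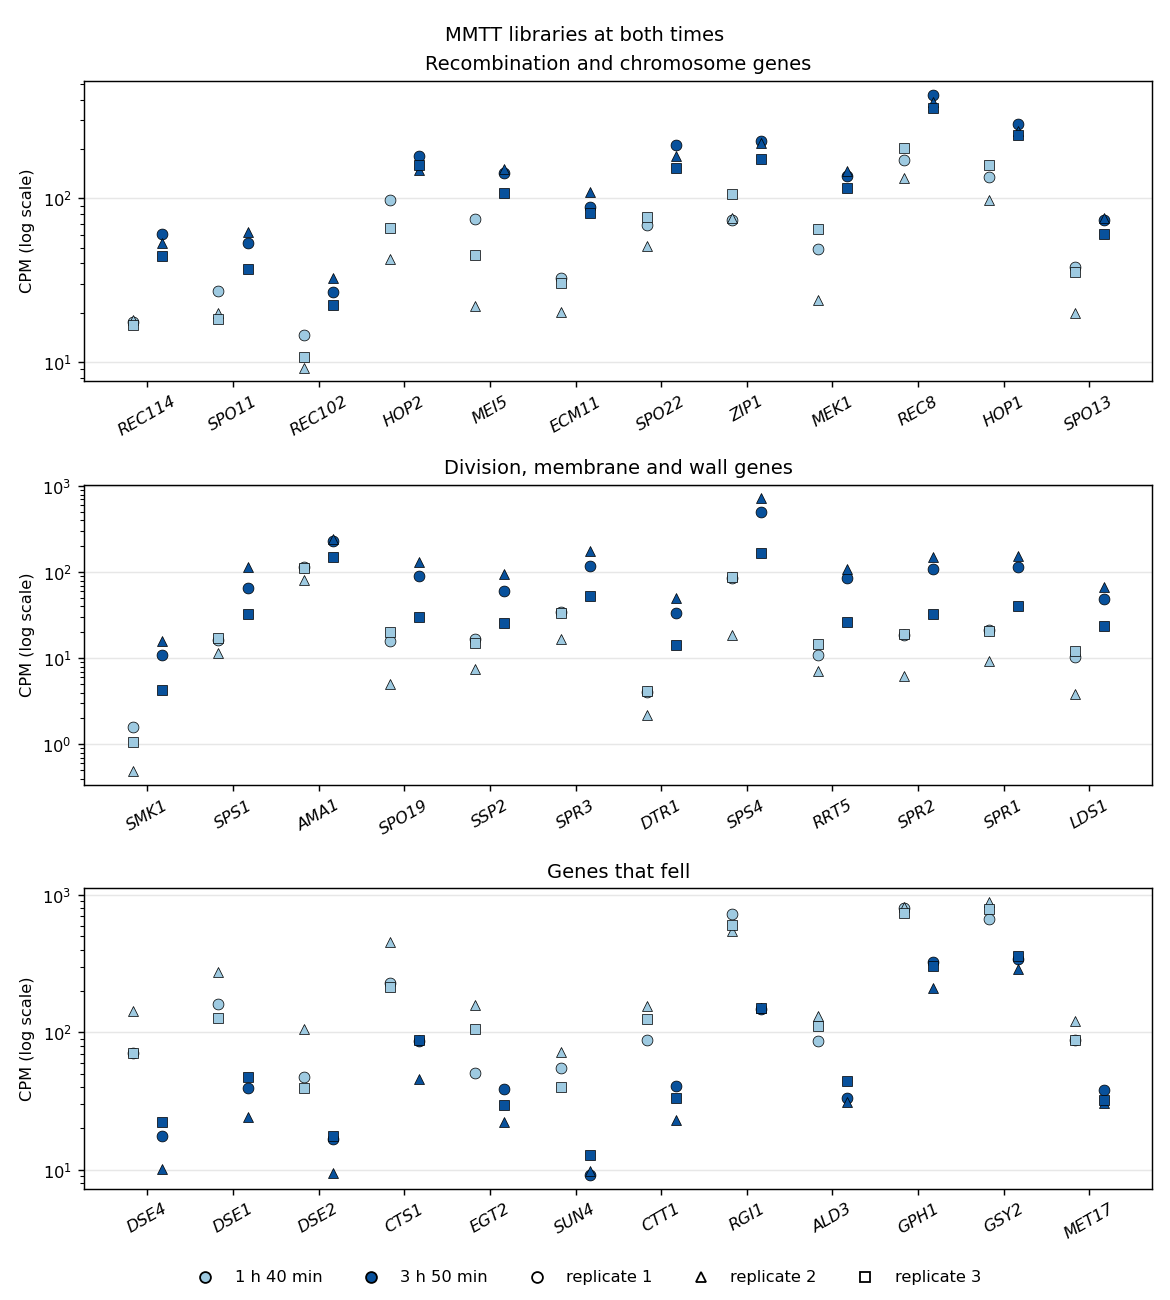
CPM (log axis) of 36 named genes in the 6 MMTT libraries, light points at 1 h 40 min and dark points at 3 h 50 min, with a symbol for each replicate. In every gene shown the dark and light points do not overlap, and among division, membrane and wall genes the triangles of replicate 2 are lowest at the first time and highest at the second.

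The core of the MSE, the letters CACAAA, was counted in the same windows. It was present on either strand in 12 of the 17 called division, membrane and wall genes, or 70.6%, in 42 of all 69 tested in these lists, or 60.9%, and in 15.3% of all 5875 windows. In the 16 called recombination and chromosome genes 1 window held it, and 1 of the 17 windows held the URS1 core. The windows of 3 called wall genes are shown for comparison with those above, at chrII:589391-589640 on the plus strand for DTR1, chrXV:690345-690594 on the plus strand for SPR1 and chrI:119642-119891 on the minus strand for LDS1. Capitals mark the match, which reads TTTGTG where it lies on the opposite strand, and it starts 139, 186 and 178 bases before the start codon in that order. Such letters alone do not show that a factor was bound.

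DTR1: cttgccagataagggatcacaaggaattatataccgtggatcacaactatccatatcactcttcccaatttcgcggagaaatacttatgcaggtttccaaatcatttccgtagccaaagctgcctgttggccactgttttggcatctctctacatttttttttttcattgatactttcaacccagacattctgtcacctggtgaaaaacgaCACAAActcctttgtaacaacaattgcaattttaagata
SPR1: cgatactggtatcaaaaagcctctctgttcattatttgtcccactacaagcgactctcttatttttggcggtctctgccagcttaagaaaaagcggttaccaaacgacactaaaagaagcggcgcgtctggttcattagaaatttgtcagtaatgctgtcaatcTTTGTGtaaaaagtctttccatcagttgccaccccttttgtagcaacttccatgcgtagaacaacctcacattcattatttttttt
LDS1: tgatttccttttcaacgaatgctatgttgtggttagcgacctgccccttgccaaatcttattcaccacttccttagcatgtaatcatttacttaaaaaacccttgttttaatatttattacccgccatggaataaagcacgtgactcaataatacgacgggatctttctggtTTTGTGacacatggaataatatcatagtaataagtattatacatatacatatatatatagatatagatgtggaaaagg

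Rises outside these lists included HXT10, HXT14 and UBC11. HXT10 and HXT14, members of the hexose transporter family, had 9.77, 3.39 and 8.85 CPM at 1 h 40 min and 58.1, 95.2 and 18.9 CPM at 3 h 50 min for HXT10 and 8.63, 2.91 and 7.16 CPM at 1 h 40 min and 46.1, 63.9 and 15.3 CPM at 3 h 50 min for HXT14. Both had the replicate order of the spore wall genes, and rose 7.80-fold and 6.68-fold (log2 fold change 2.96 ± 0.66 and 2.74 ± 0.60, edgeR, adjusted p = 0.0122 and 0.0119). UBC11, a ubiquitin-conjugating enzyme, had 12, 6.29 and 10.3 CPM at 1 h 40 min and 50.8, 85.7 and 20.0 CPM at 3 h 50 min, separate and in the same order (log2 fold change 2.45 ± 0.64, edgeR, adjusted p = 0.0275). All 3 lost their call without replicate 2 of either time, with adjusted p of 0.0735 to 0.144, and UBC11 also without any other library but the 3 h 50 min replicate 3 (0.0591 to 0.0768).

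In the lists of DNA synthesis and packaging, 1 gene each was called, where 1.46% of all genes tested were called higher. Of 41 premeiotic DNA replication genes, 36 had a positive log2 fold change, and the median was 0.30. In this list 21 lay wholly above their earlier values and 1 wholly below, against 17% and 17.4% of all genes tested. The called gene was RNR1, the large subunit of ribonucleotide reductase, which had 79.0, 53.3 and 89.7 CPM at 1 h 40 min and 199.99, 194 and 189 CPM at 3 h 50 min. The later values were within a narrow range and well above the earlier (log2 fold change 1.40 ± 0.23, edgeR, adjusted p = 0.00161). Of 11 histone genes 1 was called, HTB2, which encodes histone H2B, and the median of the list was 0.51. Of these genes 10 had a positive log2 fold change, and 7 lay wholly above their earlier values and 0 wholly below. HTB2 had 40.4, 33.4 and 37.3 CPM at 1 h 40 min and 142, 135 and 120.3 CPM at 3 h 50 min, a 3.60-fold rise (log2 fold change 1.85 ± 0.32, edgeR, adjusted p = 0.00206). Both calls held in every leave-out.

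Ribosome biogenesis genes had log2 fold changes mostly of the same sign. Of 88 tested, 11 were called higher and 0 lower, where 1.46% of all genes tested were called higher. In this list 87 had a positive log2 fold change, and the median was 0.60. NSR1, a nucleolar protein of ribosomal RNA processing, had 20.0, 14.3 and 12.2 CPM at 1 h 40 min and 56.9, 66.4 and 55.9 CPM at 3 h 50 min, and DBP2, an RNA helicase, had 38.2, 36.3 and 28.9 CPM at 1 h 40 min and 118, 121 and 126 CPM at 3 h 50 min. All later values of both were above the earlier by a wide margin. The rises were 3.88-fold and 3.56-fold (log2 fold change 1.95 ± 0.32 and 1.83 ± 0.29, edgeR, adjusted p = 0.00161 and 0.00154). HAS1, a helicase of the early ribosomal particles, had 10.2, 9.93 and 7.79 CPM at 1 h 40 min and 20.8, 23.5 and 34.0 CPM at 3 h 50 min (log2 fold change 1.49 ± 0.29, edgeR, adjusted p = 0.00554). These 3 were called in every leave-out, while the list count was 6 without replicate 2 of either time or the 3 h 50 min replicate 3. Among 137 cytoplasmic ribosomal proteins 2 were called higher, RPS26B and RPL22B, against 1.46% of all genes tested, and the median was 0.13. RPS26B has a close copy, RPS26A, and its value is uncertain for that reason. RPL22B lost its call without replicate 2 (0.0751) or 3 (0.0709) of 1 h 40 min and replicate 2 (0.0508) or 3 (0.0845) of 3 h 50 min. BTN2, a chaperone that sorts misfolded protein, was the only called gene of the 29 in the heat response list, with 1008, 984 and 959.6 CPM at 1 h 40 min and 2636, 4075 and 3882 CPM at 3 h 50 min (log2 fold change 1.85 ± 0.22, edgeR, adjusted p = 0.000198).

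Genes that separate daughter cells after budding were among those that fell. Of 23 growth cell cycle genes, 5 were called lower and 0 higher, where 0.763% of all genes were called lower, and the median log2 fold change of the list was -0.34. DSE4, a glucanase of the daughter cell wall, had 70.9, 144 and 71.2 CPM at 1 h 40 min and 17.6, 10.2 and 22.4 CPM at 3 h 50 min. Its log2 fold change was -2.50 ± 0.40 (edgeR, adjusted p = 0.00154), a 5.65-fold fall. DSE1, a daughter cell protein, had 161, 275.3 and 127 CPM at 1 h 40 min and 39.6, 24.3 and 47.2 CPM at 3 h 50 min, a 5.02-fold fall (log2 fold change -2.33 ± 0.38, edgeR, adjusted p = 0.00161). CTS1, the chitinase that splits the septum, had 229, 459 and 213 CPM at 1 h 40 min and 86.2, 46.1 and 88.5 CPM at 3 h 50 min. All later values were below the earlier, and replicate 2 was the highest at the first time and the lowest at the second (log2 fold change -2.01 ± 0.42, edgeR, adjusted p = 0.00947). DSE2, another glucanase of separation, and EGT2, a cell wall protein, fell by 4.33-fold and 3.43-fold (edgeR, adjusted p = 0.0124 and 0.0327). SUN4, a wall protein of septation outside the list, had 55.2, 71.4 and 40.2 CPM at 1 h 40 min and 9.13, 9.73 and 12.7 CPM at 3 h 50 min (log2 fold change -2.38 ± 0.38, edgeR, adjusted p = 0.0015).

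The calls of DSE4, DSE1 and SUN4 held in every leave-out, and those of CTS1, DSE2 and EGT2 were lost without the 1 h 40 min replicate 2 (adjusted p 0.0685, 0.0907 and 0.153) and the 3 h 50 min replicate 2 (0.0692, 0.0808 and 0.141). The count of the list was then 2 in both cases. EGT2 was also lost without the 1 h 40 min replicate 3 (0.0715) and the 3 h 50 min replicates 1 and 3 (0.0668 and 0.0946). CLN2, a G1 cyclin, had 6.29 to 8.40 CPM at 1 h 40 min and 8.26 to 10.6 CPM at 3 h 50 min, and CLB2, a mitotic cyclin, had 8.40 to 10.3 CPM and 5.92 to 9.37 CPM. Neither passed the test.

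Genes of stored carbohydrate were also among those that fell. Of 19 trehalose and glycogen genes, 4 were called lower and 0 higher, where 0.763% of all genes tested were called lower. Their median log2 fold change was -0.61. GPH1, glycogen phosphorylase, had 809, 816 and 743 CPM at 1 h 40 min and 327, 211 and 306 CPM at 3 h 50 min, and GSY2, glycogen synthase, had 673, 892 and 792 CPM at 1 h 40 min and 339.8, 291 and 362 CPM at 3 h 50 min. The genes for breaking glycogen down and for making it both fell, by 2.78-fold and 2.35-fold (log2 fold change -1.48 ± 0.20 and -1.23 ± 0.16, edgeR, adjusted p = 0.000452 and 0.000376). TPS3 and TSL1, regulatory subunits of trehalose synthase, fell by 2.22-fold and 2.27-fold (edgeR, adjusted p = 0.000566 and 0.00854). Outside the list, CTT1, the cytosolic catalase, had 87.7, 156 and 125 CPM at 1 h 40 min and 40.5, 23.1 and 33.3 CPM at 3 h 50 min, a 3.76-fold fall (log2 fold change -1.91 ± 0.22, edgeR, adjusted p = 0.000198). RGI1, a gene of energy metabolism, had 725, 547 and 602 CPM at 1 h 40 min and 148, 149.7 and 150.5 CPM at 3 h 50 min, with almost equal values at the later time (log2 fold change -2.05 ± 0.27, edgeR, adjusted p = 0.000376). ALD3, an aldehyde dehydrogenase with the close copy ALD2, and REE1, linked to enolase, fell by 3.00-fold and 2.89-fold (edgeR, adjusted p = 0.000452 and 0.00368). Each of these calls held in every leave-out, except that TSL1 reached 0.05 without the 3 h 50 min replicate 2.

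Amino acid biosynthesis genes had mostly negative changes. In the aromatic list 1 of 14 genes was called lower, and in the sulfate and methionine list 1 of 22, where 0.763% of all genes tested were. All 9 arginine biosynthesis genes had a negative log2 fold change, with a median of -0.81. ARG7, which recycles the acetyl group in ornithine synthesis, had 418, 416 and 328 CPM at 1 h 40 min and 189, 151 and 221 CPM at 3 h 50 min (log2 fold change -1.04 ± 0.26, edgeR, adjusted p = 0.022). It was lost without the 1 h 40 min replicates 1 (0.0637) and 2 (0.0857) and the 3 h 50 min replicates 1 (0.0668) and 2 (0.115). Histidine biosynthesis had 0 of 7 genes called by edgeR's test, all 7 with a negative log2 fold change and a median of -0.72, and 5 of them lay wholly below their earlier values, as did 17.4% of all genes tested. MET17, which makes homocysteine from sulfide and overlaps a gene on the other strand, had 87.9, 122 and 88.7 CPM at 1 h 40 min and 38.2, 30.5 and 32.1 CPM at 3 h 50 min (log2 fold change -1.55 ± 0.33, edgeR, adjusted p = 0.0101). It was lost without replicate 2 of either time (0.0593 and 0.0631). ARO8, an aromatic aminotransferase, fell by 2.06-fold (edgeR, adjusted p = 0.0332) and kept its call only without the 1 h 40 min replicate 3, with adjusted p up to 0.145 in the other leave-outs.

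Other lists of carbon, energy and protein turnover gave no calls, where 2.23% of all genes tested were called in either direction. At that share, lists of this size can hold none. No member was called by edgeR's test among 23 acetate and gluconeogenesis genes (median -0.18), 16 citric acid cycle genes (-0.15), 38 respiratory genes (-0.19), 29 glycolysis and hexose transport genes, a list that does not hold HXT10 and HXT14 (-0.19), 26 autophagy genes (0.01) or 33 proteasome genes (-0.06). Over all genes tested, 1365 of 6419 had an unadjusted p under 0.05, and DESeq2 called 120 higher and 54 lower.

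The interval in SS was set beside that in MMTT, to see which changes the strains shared. SS had 104 of 6350 genes called higher (1.64%) and 69 lower (1.09%), and the difference of the steps, MMTT minus SS, was tested as its own contrast for 6031 genes, with 71 called higher (1.18%) and 104 lower (1.72%). In either direction this was 2.72% of genes in SS and 2.9% for the difference, and with no fold threshold 6.91% were higher and 4.44% lower in SS. Of the 94 genes that rose in MMTT, 9 were also called higher in SS and 17 were called higher for the difference. Of the 49 that fell, 5 were also called lower in SS and 22 called lower for the difference. In the remaining genes the steps were not shown to differ. DSE1, DSE4, EGT2 and GSY2 fell in both strains, with SS log2 fold changes of -1.54 ± 0.25, -1.34 ± 0.35, -1.55 ± 0.40 and -1.06 ± 0.19 (edgeR, adjusted p = 0.000296, 0.0159, 0.0156 and 0.000711). Their differences were not called (edgeR, adjusted p from 0.192 to 0.82), nor was that of any of the 23 growth cell cycle genes. Only DSE1 kept its SS call in every leave-out. The SS counts were 49 and 50 without the 3 h 50 min replicate 1, 62 and 48 without the 1 h 40 min replicate 3, and 163 and 115 without the 3 h 50 min replicate 2. Those of the difference were 49 and 37 without the SS 3 h 50 min replicate 1, 39 and 36 without the SS 1 h 40 min replicate 3, 39 and 77 without the SS 1 h 40 min replicate 1, 39 and 54 without the MMTT 1 h 40 min replicate 1, 46 and 54 without the MMTT 3 h 50 min replicate 1, 66 and 54 without the MMTT 3 h 50 min replicate 2, 63 and 69 without the MMTT 1 h 40 min replicate 2 and 81 and 69 without the MMTT 3 h 50 min replicate 3. Without the SS 3 h 50 min replicates 2 or 3 they rose to 96 and 160 or 83 and 164.

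**Figure D3:**
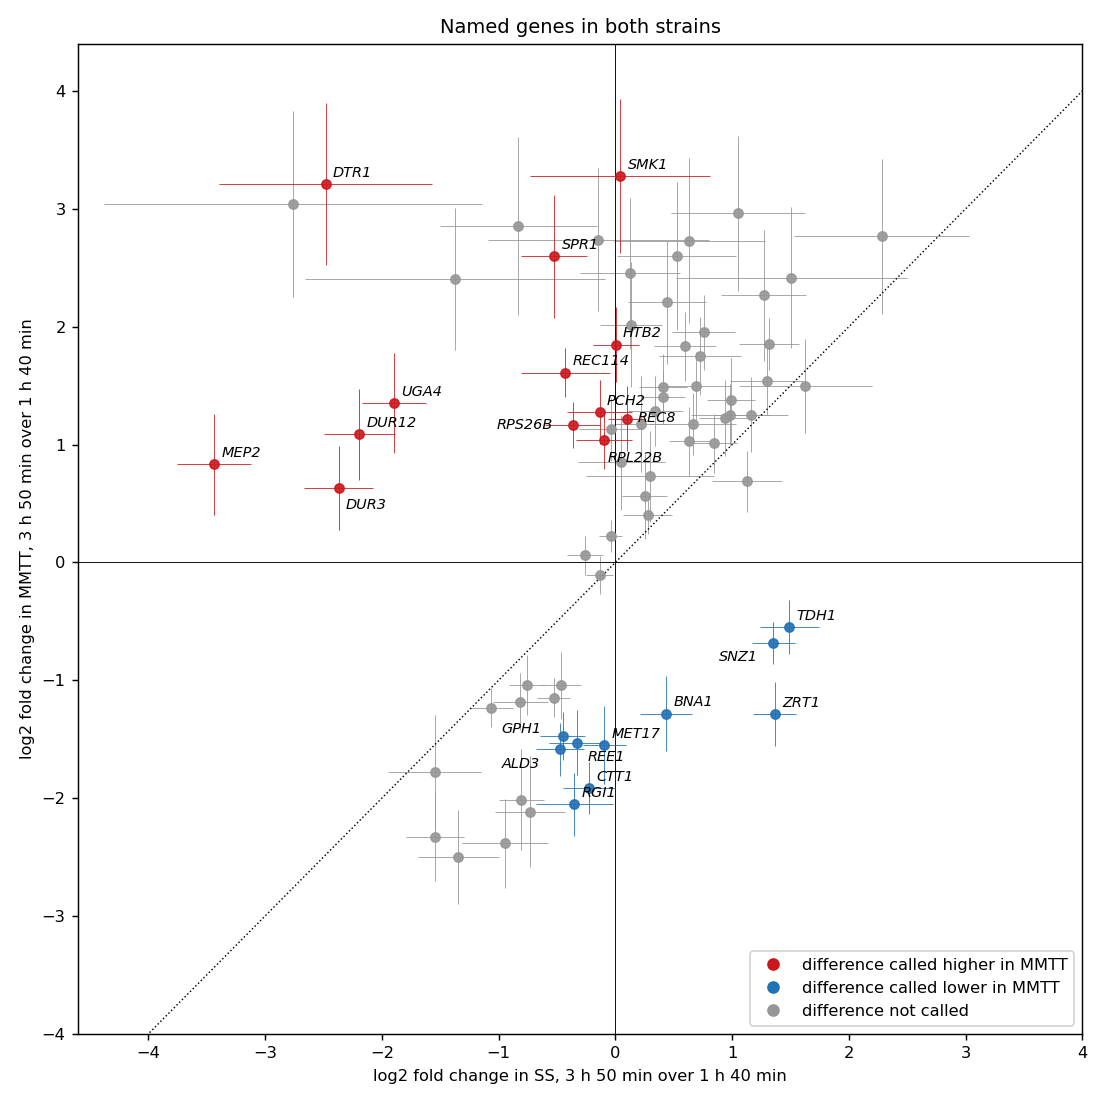
Log2 fold change from 1 h 40 min to 3 h 50 min of 74 named genes in SS (horizontal) and MMTT (vertical), with bars of 1 SE and a dotted line of equal change. Red and blue genes were called higher and lower for the difference of the steps. Among the red genes DTR1, SMK1 and SPR1 lie highest and had no call in SS, and among the blue ZRT1, SNZ1 and TDH1 lie at the lower right.

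Some recombination genes rose in both strains. Of 12 strand exchange genes, 3 were called higher in SS and 2 in MMTT, where 1.64% and 1.46% of all genes tested were. The list median was 0.65 in SS and 0.57 in MMTT, and 0 were called for the difference by edgeR's test. SPO11 and HOP1 changed by 0.94 ± 0.22 and 0.84 ± 0.20 in SS, under the fold threshold (edgeR, adjusted p = 0.00879 and 0.0076). In SS, MEK1 and HOP2 were called higher too, with log2 fold changes of 1.30 ± 0.31 and 1.16 ± 0.32 from lower levels (MEK1 at 3.91, 7.18 and 4.83 CPM at 1 h 40 min and 15.0, 11.9 and 13.5 CPM at 3 h 50 min), and so was DMC1, not called in MMTT, at 1.13 ± 0.30 (edgeR, adjusted p = 0.00923, 0.0204 and 0.0191). The difference of the steps in these 3 genes was 0.22 ± 0.46, 0.08 ± 0.48 and -0.47 ± 0.41 and not called (edgeR, adjusted p = 0.795, 0.934 and 0.488). The SS calls were lost without the 1 h 40 min replicate 1 (0.0632 for MEK1, 0.0563 for HOP2 and 0.0754 for DMC1), and those of HOP2 and DMC1 also without the 1 h 40 min replicate 3 (0.11 and 0.112) and the 3 h 50 min replicate 1 (0.0756 and 0.112). REC114 differed, since SS had 9.79, 15.3 and 5.86 CPM at 1 h 40 min and 11.7, 7.42 and 5.27 CPM at 3 h 50 min, with a difference of 2.02 ± 0.43 (edgeR, adjusted p = 0.00392). Of spore wall genes, 4 of 31 were called higher for the difference, where 1.18% of all genes tested were. The number was 2 without the SS 1 h 40 min replicates 1 or 3 or the SS 3 h 50 min replicate 1, and 7 without the MMTT 2 h 30 min replicate 2. DTR1 had 1.40, 1.44 and 1.72 CPM at 1 h 40 min and 0, 0.297 and 0.351 CPM at 3 h 50 min in SS, so each SS library held a few reads or none. Its difference of 5.62 ± 1.49 (edgeR, adjusted p = 0.021) rests on these low values. The call was lost without SS 1 h 40 min replicates 1 or 3 (0.0514 and 0.0728) or 3 h 50 min replicate 1 (0.0553). SPR1 had 15.1, 13.2 and 22.1 CPM at 1 h 40 min and 11, 9.20 and 14.6 CPM at 3 h 50 min in SS, all below the later MMTT values, and its difference of 3.07 ± 0.63 (edgeR, adjusted p = 0.00308) was called in all 12 leave-outs. SPS4 stayed at 0.527 to 1.91 CPM in SS, but its difference of 3.71 ± 1.69 was not called (edgeR, adjusted p = 0.176). SPS1 was called higher in SS as well, with a log2 fold change of 1.27 ± 0.36 (edgeR, adjusted p = 0.0256). Its difference of 0.97 ± 0.74 was not called (edgeR, adjusted p = 0.421). The SS call of SPS1 was lost without the SS 1 h 40 min replicates 1 or 3 (0.0819 and 0.115) or the SS 3 h 50 min replicates 1 or 3 (0.0958 and 0.0673).

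Nitrogen genes fell in SS and gave no calls in MMTT. Of 27 nitrogen uptake and allantoin genes, 11 were called lower in SS and 0 in either direction in MMTT by edgeR's test, and 13 were called higher for the difference. Over all genes tested, 1.09% were called lower in SS, 2.23% in either direction in MMTT and 1.18% higher for the difference. MEP2, the high-affinity ammonium permease, had 2242, 1432 and 2765 CPM at 1 h 40 min and 122, 215 and 264 CPM at 3 h 50 min in SS and 552, 788 and 575 CPM at 1 h 40 min and 1410.2, 367 and 1596 CPM at 3 h 50 min in MMTT. All later SS values were below the earlier, while in MMTT the later replicates 1 and 3 were above the earlier range and replicate 2 below it. The log2 fold change was -3.44 ± 0.32 in SS and 0.83 ± 0.43 in MMTT, a difference of 4.23 ± 0.56 (edgeR, adjusted p = 9.94e-06). DUR12, urea amidolyase, DUR3, the urea transporter, and UGA4, a permease for gamma-aminobutyrate, had the same split between replicate 2 and the others in MMTT, with 1181, 443 and 1209 CPM, 415, 136 and 447 CPM and 121, 30.0 and 98.8 CPM at 3 h 50 min. Their differences were 3.24 ± 0.52, 2.97 ± 0.48 and 3.21 ± 0.52 (edgeR, adjusted p = 0.00026, 0.000273 and 0.000301), and all 4 were called in all 12 leave-outs. Without the MMTT 3 h 50 min replicate 2, 3 genes of the list were called higher in MMTT, UGA4 among them (edgeR, adjusted p = 0.0245).

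ZRT1 changed in opposite directions in the strains. ZRT1, the high-affinity zinc transporter, fell in MMTT with 785, 986 and 684 CPM at 1 h 40 min and 316, 303 and 379 CPM at 3 h 50 min and rose in SS with 165, 169 and 115 CPM at 1 h 40 min and 324, 440.0 and 414 CPM at 3 h 50 min. All earlier MMTT values were above the later ones, and all earlier SS values below, and the MMTT call was lost without replicate 2 of either time (0.0581 and 0.0579). The steps differed, with a difference of -2.69 ± 0.33 (edgeR, adjusted p = 4.45e-06). SNZ1, of vitamin B6 synthesis, rose by 1.35 ± 0.19 in SS (edgeR, adjusted p = 8.18e-05) and had 2438, 2324 and 1969 CPM at 1 h 40 min and 1300.2, 1422 and 1446 CPM at 3 h 50 min in MMTT, below the fold threshold, with a difference of -2.07 ± 0.26. TDH1, a glyceraldehyde-3-phosphate dehydrogenase with the close copy TDH2, rose by 1.49 ± 0.25 in SS and changed by -0.55 ± 0.23 in MMTT, not called there, with a difference of -2.07 ± 0.35 (edgeR, adjusted p = 4.45e-06 for SNZ1 and 0.000422 for TDH1). CTT1 and RGI1 fell in MMTT and not in SS by the test, with differences of -1.72 ± 0.32 and -1.74 ± 0.44 (edgeR, adjusted p = 0.00137 and 0.0161). Of 88 ribosome biogenesis genes, 14 were called higher in SS, where 1.64% of all genes tested were, with a median of 0.65. For the difference 0 of them were called by edgeR's test, where 2.9% of all genes tested were called in either direction, and their median was -0.06. RGI1 lost its call for the difference without replicate 1 of either MMTT time (0.0507 and 0.0533), the SS 1 h 40 min replicate 3 (0.0728) and the SS 3 h 50 min replicate 1 (0.117), and the other 4 genes kept theirs in all 12 leave-outs. BTN2 was called higher in SS too, from 3761, 4811 and 4232 CPM to 14324, 7763 and 10349 CPM (log2 fold change 1.32 ± 0.26, edgeR, adjusted p = 0.00181). Its difference of 0.50 ± 0.35 was not called (edgeR, adjusted p = 0.376). For the difference, all 7 histidine and all 9 arginine biosynthesis genes were negative, with medians of -0.92 and -0.60 against -0.06 for all genes tested.

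**Figure D4:**
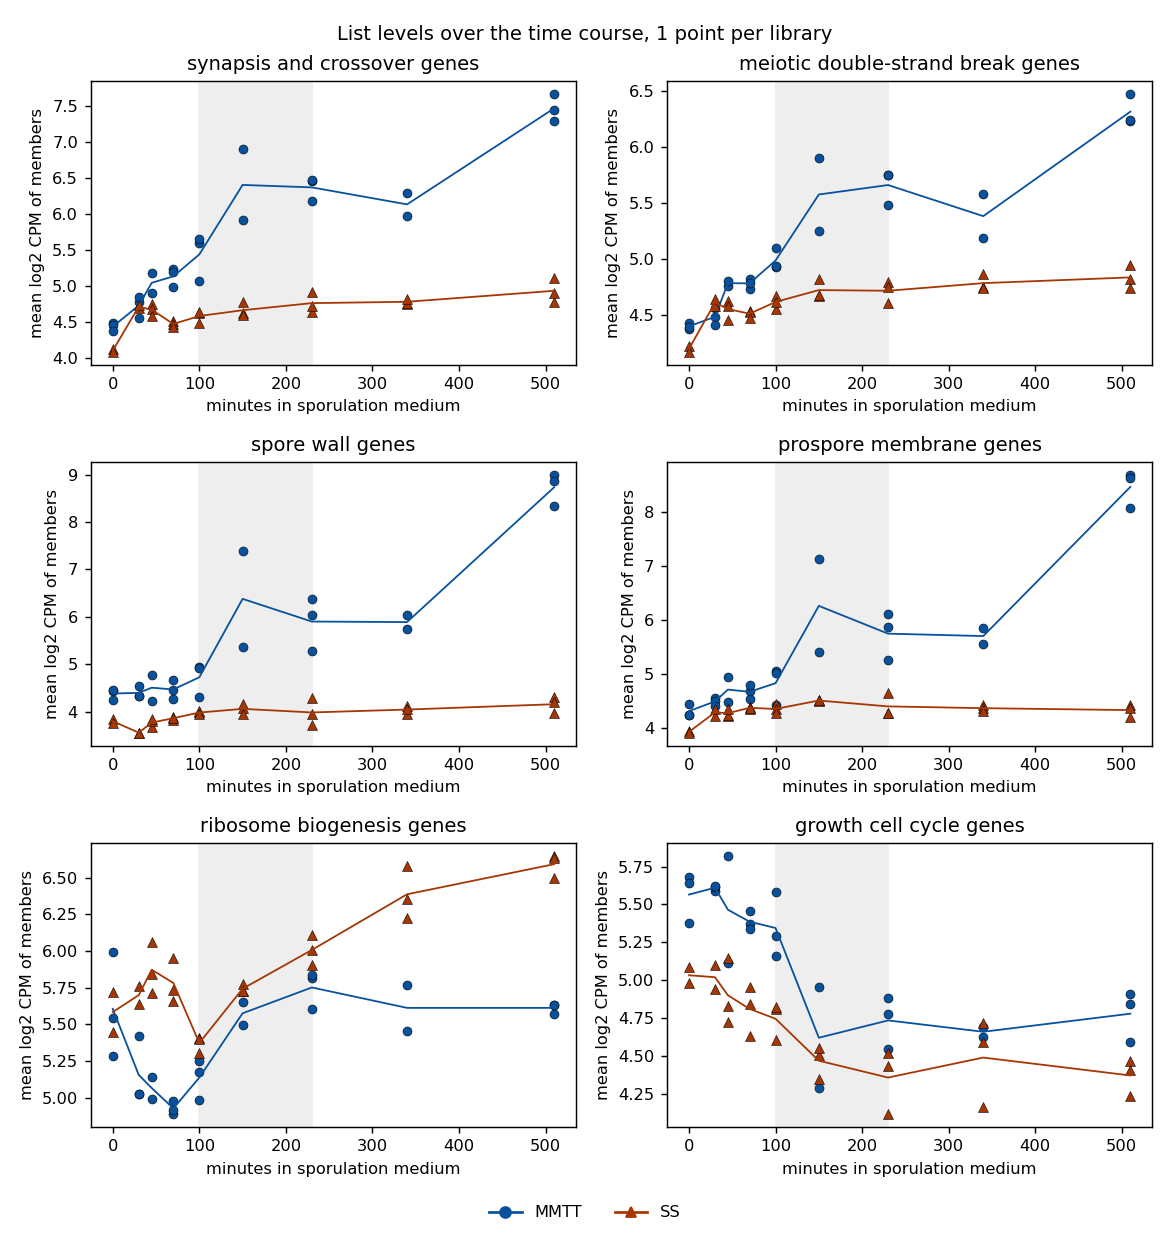
Mean log2 CPM of the members of 6 lists (vertical axes) against minutes in sporulation medium (horizontal axes) in the 24 MMTT and 25 SS libraries of the study's set, 1 point for each library and lines through the means, with the interval shaded. The spore wall genes of MMTT reach 8.35 to 8.99 at 8 h 30 min, above their 5.29 to 6.37 at 3 h 50 min, and a single high point at 2 h 30 min is replicate 2.

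Placed in the whole course, the synapsis and spore wall lists of MMTT were at intermediate levels at 3 h 50 min. In MMTT the mean log2 CPM of synapsis and crossover genes was 5.08 to 5.65 at 1 h 40 min, 6.18 to 6.47 at 3 h 50 min and 7.29 to 7.66 at 8 h 30 min. The spore wall genes went from 4.31 to 4.94 through 5.29 to 6.37 to 8.35 to 8.99. At 5 h 40 min they were at 5.75 and 6.03, within the range of 3 h 50 min. In SS the spore wall genes were at 3.95 to 4.01 at 1 h 40 min and 3.72 to 4.28 at 3 h 50 min, so the 2 ranges overlapped. The growth cell cycle genes of MMTT were at 5.16 to 5.58 at the first time and 4.54 to 4.88 at the second, without overlap, and at 4.59 to 4.91 at 8 h 30 min. The ribosome biogenesis genes of MMTT were at 4.99 to 5.25, 5.60 to 5.84 and 5.57 to 5.63 at those 3 times.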

How the data were processed

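Gene expression was measured by RNA sequencing in 54 libraries, 3 at each of 9 time points in MMTT and SS. The authors deposited a single table of raw read counts per gene, not normalized, with 6571 genes and 54 library columns. The submitters' processing notes name FastQC and STAR. Versions, the annotation and the strand setting are not given in the sources used here, so reads of overlapping genes may not be told apart. Of the 6571 genes, 5906 were matched to the R64 annotation by systematic name and 665 were not.

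Counts were fitted with edgeR 4.0.16, which draws on limma 3.58.1, under R 4.3.3. The model had TMM factors, a mean for each time point, a robust quasi-likelihood fit and Benjamini-Hochberg adjustment. The fit held the study's own set of libraries, 24 of MMTT, 25 of SS and 49 for the difference, since the study left out 5. Genes needed 0.5 CPM in 3 libraries, or 3 CPM in 3 for the difference. CPM use the TMM factors, mean log2 CPM a prior count of 2, and SE is the absolute log2 fold change over the root of the F statistic. The named genes were the 12 largest called changes in each direction with a mean of at least 10 CPM, fixed regulators, up to 4 called genes of each list, and the 5 largest called differences in each direction. The members and the lists were chosen with earlier results of these data known. Promoter windows and gene overlaps came from R64, with Python 3.11.15, pandas 2.3.3 and Biopython 1.88, near copies from BLAST+ 2.17.0 and figures from matplotlib 3.10.9. Alternatives were DESeq2 1.42.0, other scaling, filters and fold thresholds, other sets of libraries, a replicate block and leaving out each library. With totals of 4121628 to 4885774, a gene of a few CPM rests on a few reads in each library. The result of 1 named gene is not reported here.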

Additional observations from a re-analysis of the deposited data

Results flagged for a closer look

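For 23 of the named genes reported here, the change over the interval differed between the strains. The difference itself was tested (edgeR, Benjamini-Hochberg adjustment over 6031 genes), and 2.9% of all genes tested were called in either direction. Some of the 23 were named because their called differences were among the largest. The count of 23 is therefore partly set by that choice and cannot be compared with the share of all genes. On the log2 scale, MMTT minus SS, the difference among nitrogen genes was 4.23 for MEP2, 3.24 for DUR12, 3.21 for UGA4 and 2.97 for DUR3. Among meiotic and spore genes it was 5.62 for DTR1, 3.25 for SMK1, 3.07 for SPR1, 2.02 for REC114, 1.38 for PCH2 and 1.09 for REC8. It was 1.81 for HTB2, 1.5 for RPS26B and 1.09 for RPL22B, genes of chromatin and the ribosome. In the other 10 genes the difference was negative, which describes the change and not a lower level in MMTT. It was -1.06 for GPH1, -1.15 for ALD3, -1.23 for REE1, -1.49 for MET17, -1.72 for CTT1, -1.74 for RGI1, -1.75 for BNA1, -2.07 for SNZ1, -2.07 for TDH1 and -2.69 for ZRT1. Of these 23, 12 were called in all 12 leave-outs, 8 of the 13 higher and 4 of the 10 lower, while SMK1, REC8, RPL22B, PCH2 and REE1 lost the call in most of them, with adjusted p up to 0.176, 0.107, 0.131, 0.108 and 0.181.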

How the results depend on the processing

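The numbers of called genes, given as higher and lower, depended on the libraries in the fit and on the fold threshold. In MMTT, 94 and 49 became 28 and 28 with all libraries, 26 and 6 at a log2 threshold of 2, and 220 and 231 with no fold threshold. In SS, 104 and 69 became 17 and 18 with the libraries of the interval alone, 12 and 7 at a log2 threshold of 2, and 439 and 282 with no fold threshold. For the difference, 71 and 104 became 38 and 45 with the libraries of both intervals alone, 40 and 61 with all libraries, 19 and 9 at a log2 threshold of 2, 249 lower with no fold threshold, and 113 higher with DESeq2. Leaving out a library gave 22 to 122 higher and 19 to 51 lower in MMTT, 49 to 163 and 48 to 115 in SS, and 39 to 98 and 36 to 164 for the difference. The highest of the first and of the fifth range came without the MMTT 2 h 30 min replicate 2, chosen after seeing the data. A replicate block gave 94 and 49 in MMTT (89 and 48 shared), 91 and 72 in SS and 76 and 96 for the difference. Same-numbered libraries correlated at -0.21 to -0.10 in MMTT and -0.33 to 0.14 in SS. Those with different numbers correlated at -0.10 to 0.22 in MMTT and -0.35 to 0.38 in SS. These values show no pairing by number but cannot exclude a shared culture, since 3 libraries per time give only rough deviations. The cause of these shifts was not tested. Low counts limit SMK1, SPO77 and DTR1.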
